A study of Mus musculus with 15 samples.

Results

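The response of mouse optic tissue to its first 2 days in medium with basic Fgf (bFgf) and serum was examined by comparing the RNA-Seq libraries of Day 12 +Fgf with those of Day 10 Rx::GFP+. All genes with at least 1 CPM (counts scaled to library size) in at least 3 of the 15 libraries of the series were kept, which gave 13845 of 23244 gene entries. SFEBq culture was the source of the tissue, a method in which dissociated mouse embryonic stem (ES) cells aggregate in wells they cannot stick to and build an optic epithelium at the surface. All groups came from the ES line EB5 Rx::GFP+/-, whose GFP reporter marks expression of the eye field gene Rax (also called Rx). In the Day 10 Rx::GFP+ group, the GFP+ epithelium was cut out with forceps and collected. In the Day 12 +Fgf group, which the labels call neural retina, the same epithelium was then cultured in retinal maturation medium with 5 ng/ml human recombinant bFgf and 10% fetal bovine serum (FBS). In the Day 12 +Wnt group, which the labels call retinal pigmented epithelium, the medium held the GSK3 inhibitor CHIR99201 in place of both. Each group held 3 biological replicates from this single ES line. No Day 12 tissue in the same medium with neither bFgf and serum nor CHIR99201 was analysed here, so 2 days of time, explanting, the new medium, serum and bFgf cannot be told apart.

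As background, Fgf binding to its receptor tyrosine kinases activates the Ras and MAP kinase pathway, which induces transcription factors of the Etv family and, as negative feedback, Sprouty and Spred proteins and Dusp phosphatases. In the optic vesicle of the embryo, Fgf from the overlying ectoderm favours neural retina over pigment epithelium, whereas Wnt and BMP signals favour the pigment epithelium. Serum carries lysophospholipids and growth factors that act through actin on serum response factor (Srf), and it raises YAP activity and the expression of contractile, matrix and adhesion genes in many cells.

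Between Day 10 Rx::GFP+ and Day 12 +Fgf, limma put 7716 genes (55.7% of those tested) past the threshold, an adjusted p under 0.05, with 3862 of them higher (27.9%) and 3854 lower (27.8%) after the 2 days. Values of the replicates did not overlap between the groups for 61.0% of all tested genes. No overlap was also a condition for naming most genes below, so their separation is not a result about them. Most of the changes were small, and 83.2% of the genes past the threshold changed by less than 2-fold. The median log2 change of all tested genes was -0.0021 and the median size of the change, in either direction, was 0.26. Large changes leaned upward. A change of at least 2-fold was found for 1293 genes (9.34%). It was an increase for 791 genes (5.71%) and a decrease for 502 (3.63%). At 4-fold or more there were 171 increases and 120 decreases, and at 8-fold or more there were 53 and 18. All log2 changes are differences of log2(CPM + 0.3), which understates the change of genes near 0, and every change given as higher or lower below passed the threshold unless stated otherwise. Because the tissue was measured in bulk, fewer cells of a type and less RNA per cell cannot be told apart for any gene. The list counts below are to be read against the shares of all tested genes, 27.9% higher and 27.8% lower.

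**Figure D1:**
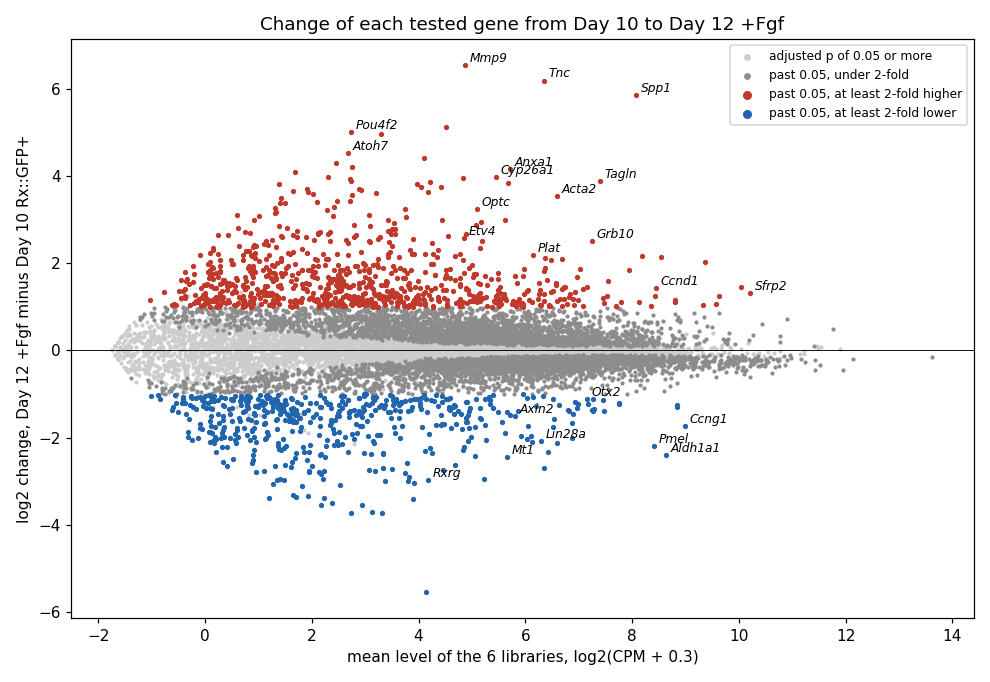
The log2 change from Day 10 Rx::GFP+ to Day 12 +Fgf (y axis) is plotted against the mean log2 CPM of both groups (x axis) for each of the 13845 tested genes, in red for the 791 genes at least 2-fold higher and in blue for the 502 at least 2-fold lower. The largest changes are increases.

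Libraries held between 13648344 and 16086698 reads on genes at Day 10 and between 15908637 and 16175450 in Day 12 +Fgf. The RNA integrity values that the study lists did not overlap between these groups, with the lower values at Day 10. With RNA integrity as a covariate in the fit, 5608 genes passed. The labelled tissue was checked against marker lists. The 7 optic progenitor markers summed to between 2004 and 2210 CPM at Day 10 and between 2154 and 2282 CPM in Day 12 +Fgf. Of 13 tested markers of pluripotent cells, 9 were lower and none higher. The sum of all 14 listed, tested or not, went from 92.9 to 109.4 CPM at Day 10 to 46.8 to 72.7 CPM in Day 12 +Fgf. Of 14 tested markers of neural crest and mesenchyme, 5 were higher and 1 lower, and the neural crest genes Sox10 and Foxd3 did not reach the filter. All 16 listed summed to 88.3 to 119.6 CPM at Day 10 and 129.5 to 242.0 CPM in Day 12 +Fgf. Without Day 12 +Fgf replicate 2, 4 of the tested markers of neural crest and mesenchyme were higher and 4 lower. The sum of the 9 endothelial markers, of which 4 were tested, went from between 37.8 and 61.8 CPM to between 100.8 and 171.6 CPM. Most of it was Kdr, a vascular growth factor receptor that retinal progenitors also express, at 34.3, 58.4 and 54.3 CPM at Day 10 and 155, 98.1 and 169 CPM in Day 12 +Fgf (chosen after its values were seen). The part of other cell types and of RNA integrity in the results below was not tested. The strand setting of the counting is not given in the sources used here, so for genes whose exons overlap a gene on the other strand (among those named below, with a coding partner, Tagln, Pmel, Junb, Ccnd1, Ccne2, Tk1, Spred3, Adamts4, Itga4, Itga7, Nid2, Bmp6, Cp, Heph, Gapdh, Hspd1, Manf, Pdia6, Mest, Mxd3, Heatr1, Nusap1, Nefl, Nkx6-2, Cacna1d, Kcnj13 and Stat3) the reads may not be separated.

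The targets and feedback regulators of Fgf and MAP kinase signaling rose almost throughout. Of 18 tested members of this list, 14 were higher (10 of them at least 2-fold), 1 was lower and 3 did not pass, with a median log2 change of 1.10. Spry4, a Sprouty inhibitor of the pathway, rose from 2.04, 2.67 and 2.67 CPM at Day 10 to 16.5, 14.6 and 18.1 CPM in Day 12 +Fgf (log2 change 2.599, SE 0.13, limma adjusted p = 2.76e-10). The groups lay far apart compared with the spread within them. Etv4, an Ets factor induced by Fgf, rose from 7.15, 8.69 and 8.02 to 49.1, 48.5 and 49.2 CPM (log2 change 2.58, SE 0.15, limma adjusted p = 9.84e-10), a rise that was even across the libraries. Etv1, of the same family, rose by 1.68 on the log2 scale, from 15.2 ± 1.398 to 49.4 ± 4.32 CPM (SD, n = 3). Dusp6, the phosphatase that removes the activating phosphates from Erk, was at 55.2, 56.3 and 55.9 CPM at Day 10 and 151, 148 and 165 CPM in Day 12 +Fgf (log2 change 1.46, SE 0.11, limma adjusted p = 3.1e-08).

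The other Sprouty and Spred genes rose less than Spry4. Spry2 rose from 23.98, 25.3 and 28.7 CPM at Day 10 to 63.1, 52.1 and 70.6 CPM in Day 12 +Fgf (log2 change 1.23, SE 0.09). Spry1 rose from 22.9, 23.1 and 24.8 to 44.1, 31.3 and 45.2 CPM (log2 change 0.74, SE 0.11), where replicate 2 of Day 12 +Fgf was the lowest but still above all Day 10 libraries. Spred3 rose by 1.16 on the log2 scale, Spred1 by 0.69 and Spred2 by 0.37, and none of these genes overlapped between the groups. The Spred2 call was lost with RNA integrity as a covariate (0.27). In the direct test against Day 12 +Wnt, which does not use the Day 10 libraries in its difference, 16 of the 18 members were higher in Day 12 +Fgf and 1 was lower, against 26.3% and 25.2% of all tested genes. Dusp6 illustrates this, at 19.5, 25.3 and 26.7 CPM in Day 12 +Wnt, below all Day 10 libraries.

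The Fgf ligands, receptors and cofactors moved both ways. Of 21 tested, 7 were higher, 5 were lower and 9 did not pass, a share close to that of all genes, and with RNA integrity as a covariate 4 were higher and 5 lower. Fgf15, a ligand made by the early neural retina, was at 57.4, 61.97 and 46.4 CPM at Day 10 and 166, 255 and 194 CPM in Day 12 +Fgf (log2 change 1.87, SE 0.19, limma adjusted p = 3.96e-07). Fgf9, a second retinal ligand, rose from 9.06, 11.9 and 11.4 CPM at Day 10 to 23.8, 16.4 and 22.4 CPM in Day 12 +Fgf (log2 change 0.93, SE 0.18). Both were lower in Day 12 +Wnt than at Day 10, at 11.2, 7.03 and 9.86 CPM for Fgf15 and 1.13, 1.74 and 1.32 CPM for Fgf9. Among the receptors, Fgfr2 fell, from 142, 139 and 138 CPM to 61.03, 62.1 and 51.6 CPM (log2 change -1.26, SE 0.12, limma adjusted p = 2.43e-07). Fgfr1, with the highest mean reading in this list at Day 10, was at 169.6, 182 and 176 CPM at Day 10 and 161, 165 and 161 CPM in Day 12 +Fgf and did not pass (limma adjusted p = 0.0907), but passed with RNA integrity as a covariate (log2 change -0.23). Fgfr3 fell by 0.57 on the log2 scale, to 10.9, 14.1 and 8.75 CPM, and this call was lost without Day 12 +Fgf replicate 3 (log2 change -0.41). Flrt3, a membrane protein that binds Fgf receptors, fell by 0.61 on the log2 scale.

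**Figure D2:**
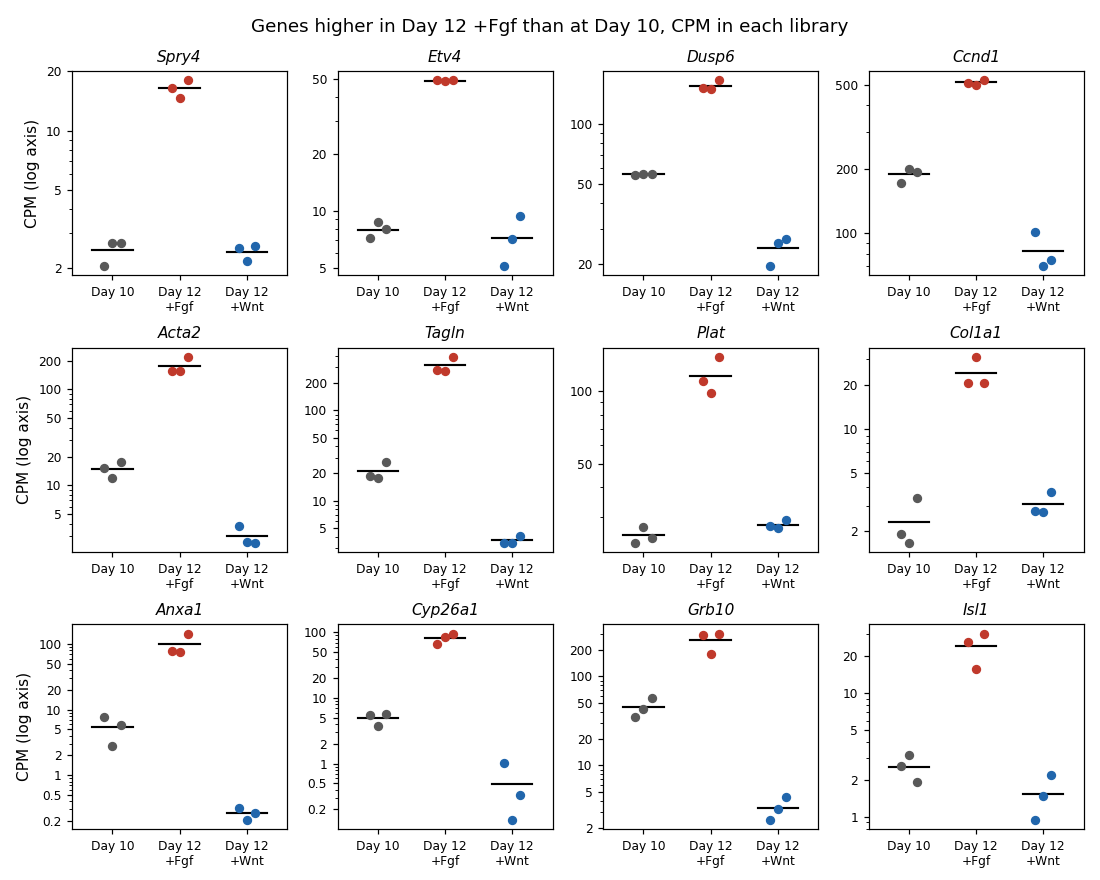
CPM on a log axis in each library of Day 10 (grey), Day 12 +Fgf (red) and Day 12 +Wnt (blue) for 12 genes that rose, with a bar at the mean of 3 replicates. All 3 Day 12 +Fgf libraries lie above all Day 10 libraries in each panel, a condition of the rule by which genes were named. For Dusp6, Ccnd1, Acta2, Tagln, Anxa1, Cyp26a1 and Grb10 the Day 12 +Wnt libraries lie below Day 10.

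Immediate early and AP-1 genes, which mitogens induce within minutes, did not move as a group. Of 20 tested, 8 were higher and 5 lower. Fosl2, a Fos family subunit of AP-1, rose from 7.63, 16.2 and 7.95 to 21.1, 19.3 and 29.00 CPM (log2 change 1.17, SE 0.21, limma adjusted p = 0.000225), and its lowest Day 12 +Fgf value lay only a little above its highest Day 10 value. Junb, a Jun family subunit, was at 9.61, 6.89 and 8.71 CPM at Day 10 and 15.7, 14.3 and 22.6 CPM in Day 12 +Fgf (log2 change 1.02, SE 0.19, limma adjusted p = 0.000263). Junb overlaps Prdx2 on the other strand. Atf3, a stress-induced factor, fell from 11.04, 15.7 and 11.8 CPM to 5.13, 4.33 and 4.73 CPM (log2 change -1.37, SE 0.17), and Klf4 from 8.45, 11.4 and 7.87 CPM to 3.296, 3.19 and 3.32 CPM (log2 change -1.402, SE 0.25). Jund, the member with the highest mean reading at Day 10, was at 160.3, 142 and 138 CPM at Day 10 and 136, 138 and 149 CPM in Day 12 +Fgf and the groups overlapped. Against Day 12 +Wnt, 13 of the 20 genes were higher in Day 12 +Fgf and 2 were lower.

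Genes that respond to serum, Srf and YAP moved more. Of 27 tested, 19 were higher (8 of them at least 2-fold) and 7 lower, none of the latter by 2-fold, with a median log2 change of 0.45. The increases were led by genes of the smooth muscle type of actin cytoskeleton. Acta2, the smooth muscle actin gene at chr19:34241090-34255590, minus strand (GRCm38), rose from 15.1, 11.9 and 17.6 CPM at Day 10 to 157, 156 and 218 CPM in Day 12 +Fgf (log2 change 3.55, SE 0.18, limma adjusted p = 3.04e-10). Tagln, which encodes the actin-binding protein transgelin, rose from 18.7, 17.7 and 27.1 to 282, 273 and 393 CPM (log2 change 3.88, SE 0.22, limma adjusted p = 6.69e-10). Its exons overlap Pcsk7 and Gm48529 on the other strand, so a part of its reads may belong there. Myl9, a myosin light chain, was at 14.4, 9.89 and 14.4 CPM at Day 10 and 37.9, 39.6 and 46.4 CPM in Day 12 +Fgf (log2 change 1.67, SE 0.17, limma adjusted p = 4.94e-07). Axl, a receptor kinase used as a YAP target, rose from 29.4, 26.4 and 30.9 CPM at Day 10 to 89.7, 90.7 and 104 CPM in Day 12 +Fgf (log2 change 1.703, SE 0.07, limma adjusted p = 3.01e-11). In Day 12 +Wnt, Acta2 stood at 3.77, 2.58 and 2.52 CPM and Tagln at 3.397, 3.41 and 4.04 CPM, below Day 10.

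The decreases in this list included members of the Hippo pathway itself. Ajuba, an adaptor that holds back the Lats kinases, fell from 223, 235 and 202 to 133, 124 and 122 CPM (log2 change -0.80, SE 0.06, limma adjusted p = 1.28e-08). Lats2, the kinase that inactivates YAP, was at 59.3, 52.7 and 50.8 CPM at Day 10 and 34.1, 35.3 and 34.5 CPM in Day 12 +Fgf (log2 change -0.64, SE 0.08). Amotl2 fell by 0.45 and Wwtr1, the gene of the YAP paralog TAZ, by 0.47 on the log2 scale. Actg1, a cytoplasmic actin gene with the highest mean reading of the list at Day 10, rose from 2659.8, 2610.4 and 2628 CPM at Day 10 to 2794, 2779 and 2933 CPM in Day 12 +Fgf (log2 change 0.11, SE 0.04, limma adjusted p = 0.0388), a small rise whose call was lost without any of 5 of the 6 libraries in turn (0.08 without Day 12 +Fgf replicate 3). Against Day 12 +Wnt, 23 of the 27 members were higher in Day 12 +Fgf and 1 was lower.

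The binding sequence of Srf, the CArG box, was searched on both strands in the 250 bases before the RefSeq start (GRCm38.p6) of the 10919 tested genes with a promoter sequence. It was found in 1.41% of them, in 1.87% of the matched genes that rose at least 2-fold and in 0.8% of those that fell as much. Of 22 serum and YAP list members with a sequence, 5 held the box. Tagln had no promoter sequence and was not searched. They are shown with 10 bases on either side, on the strand of the gene, because they show the sequence searched for, and the CArG box is in capitals. A match is a description of the letters, not of binding.
Actg1: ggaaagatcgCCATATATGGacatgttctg
Cnn2: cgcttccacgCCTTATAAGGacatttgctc
Myl9: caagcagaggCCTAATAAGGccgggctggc
Vcl: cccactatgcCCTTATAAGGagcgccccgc
Srf: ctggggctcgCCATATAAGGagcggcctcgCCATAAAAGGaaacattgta

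These stretches lie upstream of the annotated starts at chr11:120348566-120348595 (minus strand) for Actg1, chr10:79988534-79988563 (plus) for Cnn2, chr2:156775293-156775322 (plus) for Myl9, chr14:20929161-20929190 (plus) for Vcl and chr17:46556205-46556254 (minus) for Srf, which holds 2 boxes. Cnn2, Vcl and Srf were chosen after their values were seen. Cnn2, the gene of the actin-binding protein calponin 2, rose from 65.3, 51.9 and 66.2 to 129, 132 and 158 CPM (log2 change 1.19, SE 0.11, limma adjusted p = 1.64e-07). Vcl, the gene of the focal adhesion protein vinculin, was at 185, 231 and 190.0 CPM at Day 10 and 258, 240.4 and 309 CPM in Day 12 +Fgf (log2 change 0.41, SE 0.09, limma adjusted p = 0.00106). Srf itself fell from 67.05, 76.1 and 62.8 CPM at Day 10 to 62.6, 57.1 and 61.6 CPM in Day 12 +Fgf (log2 change -0.18, SE 0.07, limma adjusted p = 0.0288). Genes with the same box in their promoter thus moved by different amounts and not all in 1 direction.

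Secreted proteases and their inhibitors rose. Of 37 tested matrix metalloproteinase, ADAM and inhibitor genes, 25 were higher (11 at least 2-fold) and 5 lower, none of these by 2-fold. Beside Mmp9, the gelatinase with the largest increase of any gene (log2 change 6.55), Adamts18 rose from 0.786 ± 0.222 to 9.17 ± 3.01 CPM (SD, n = 3, log2 change 3.096, SE 0.23, limma adjusted p = 1.46e-08). Adam12, a membrane protease linked to cell fusion and adhesion, rose from 2.79, 1.404 and 2.75 to 12.7, 12.3 and 17.5 CPM (log2 change 2.500, SE 0.22, limma adjusted p = 9.72e-08). Adamts4, an aggrecanase, was at 4.497, 4.35 and 4.13 CPM at Day 10 and 11.3, 11.5 and 14.2 CPM in Day 12 +Fgf (log2 change 1.45, SE 0.14). No overlap with Day 10 was a condition for naming these 3 genes. The decreases were Adam23 (-0.72 on the log2 scale), Mmp17 (-0.52), Reck (-0.49), a membrane inhibitor of metalloproteinases, Mmp15 (-0.46) and, chosen after its value was seen, Adamts9 (-0.34).

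The plasminogen activation genes moved in 1 direction. Of 12 tested, 9 were higher (5 at least 2-fold), none was lower and 3 did not pass, with a median log2 change of 0.76. Plau, the urokinase type activator, rose from 2.52, 2.47 and 2.45 CPM at Day 10 to 17.9, 13.3 and 28.05 CPM in Day 12 +Fgf (log2 change 2.78, SE 0.29, limma adjusted p = 7.42e-07). Plat, the tissue type activator, rose from 23.4, 27.3 and 24.6 to 110.4, 98.1 and 139 CPM (log2 change 2.18, SE 0.10, limma adjusted p = 9.24e-11). Replicate 3 of Day 12 +Fgf was the highest for both activators.

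Matrix glycoproteins were among the largest increases. Of 34 tested, 18 were higher (13 at least 2-fold) and 2 lower. Tnc and Spp1 rose by 6.199 and 5.86 on the log2 scale, and Spp1, the gene of osteopontin, varied between the Day 12 +Fgf libraries (434, 293 and 869.9 CPM). Bgn, the small proteoglycan biglycan, was at 0.204, 0.334 and 0.153 CPM at Day 10 and 10.7, 11.3 and 8.43 CPM in Day 12 +Fgf (log2 change 4.303, SE 0.29, limma adjusted p = 6.4e-09). Fbln2, the elastic fibre protein fibulin 2, rose from 2.38, 2.21 and 1.299 CPM at Day 10 to 24.02, 24.9 and 42.9 CPM in Day 12 +Fgf (log2 change 3.75, SE 0.24, limma adjusted p = 3.42e-09). Sparc, with the highest mean reading in this list at Day 10, rose from 586, 579 and 603 to 862, 754 and 959.9 CPM (log2 change 0.54, SE 0.08). The decreases were Efemp1, from 13.4, 9.96 and 10.3 to 6.401, 6.75 and 6.39 CPM (log2 change -0.74, SE 0.13), and Has2, a hyaluronan synthase (log2 change -0.60, SE 0.15, and -0.39 without Day 12 +Fgf replicate 1), whose call was lost with RNA integrity as a covariate (-0.26). Fn1, the fibronectin gene, chosen after its values were seen, was at 118, 153 and 137 CPM at Day 10 and 597, 471 and 751 CPM in Day 12 +Fgf (log2 change 2.13, SE 0.13).

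Collagens split into large increases and smaller decreases. Of 39 tested, 20 were higher (17 at least 2-fold), 9 lower (3 at least 2-fold) and 10 did not pass. The fibrillar chains of collagen I rose, with Col1a1 at 1.91, 1.67 and 3.36 CPM at Day 10 and 20.4, 30.9 and 20.4 CPM in Day 12 +Fgf (log2 change 3.24, SE 0.24, limma adjusted p = 1.41e-08). Col1a2 rose from 9.27, 7.02 and 7.34 CPM at Day 10 to 58.2, 75.9 and 55.8 CPM in Day 12 +Fgf (log2 change 2.96, SE 0.17, limma adjusted p = 8.51e-10). For both genes replicate 2 of Day 12 +Fgf was the highest. Col6a1, of the beaded filaments, rose from 2.32, 2.87 and 3.51 to 17.3, 23.1 and 20.1 CPM (log2 change 2.68, SE 0.23). Col5a3 was at 1.703, 0.602 and 0.611 CPM at Day 10 and 5.96, 4.27 and 14.7 CPM in Day 12 +Fgf (log2 change 2.67, SE 0.42), where replicate 3 stood apart. In the other direction, Col18a1, a basement membrane collagen with the highest mean reading of the list at Day 10, fell from 373, 354 and 345 CPM at Day 10 to 217, 218 and 186 CPM in Day 12 +Fgf (log2 change -0.79, SE 0.06, limma adjusted p = 1.23e-08). The transmembrane collagen Col13a1 fell from 7.22, 7.89 and 7.49 to 1.27, 2.102 and 1.02 CPM (log2 change -2.197, SE 0.25, limma adjusted p = 1.83e-06), and Col11a2 and Col25a1 fell by 1.13 and 1.09 on the log2 scale.

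Of 33 tested genes of laminins, integrins and the basement membrane, 18 were higher and 6 lower, and 11 and 2 with RNA integrity as a covariate. Itgb3, the β3 chain of receptors for vitronectin and osteopontin, was at 0.681, 1.003 and 0.764 CPM at Day 10 and 6.21, 4.91 and 11.3 CPM in Day 12 +Fgf (log2 change 2.73, SE 0.41, limma adjusted p = 3.12e-05). Nid1, which links laminin to collagen IV, rose from 24.7, 30.3 and 24.8 CPM at Day 10 to 94.8, 81.2 and 122 CPM in Day 12 +Fgf (log2 change 1.88, SE 0.13, limma adjusted p = 9.22e-09), whereas its paralog Nid2 fell by 0.38 on the log2 scale, to 31.6, 30.01 and 33.5 CPM. Itgb1, the common β1 chain and the highest mean reading of the list at Day 10, rose from 357, 372 and 358 to 549.8, 564 and 645 CPM (log2 change 0.69, SE 0.05). Itga7 and Itga4 rose by 1.57 and 1.52, and Itgb5 fell by 0.48. The calls of Itgb5 and Nid2 were lost with RNA integrity as a covariate (-0.21 and -0.35). Lama5, a laminin chain of mature basement membranes, was at 56.1, 49.7 and 47.9 CPM at Day 10 and 29.7, 26.2 and 29.96 CPM in Day 12 +Fgf (log2 change -0.83, SE 0.13).

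Annexins and S100 genes, which encode calcium-dependent membrane and adaptor proteins, had the highest median of the 47 lists, with a log2 change of 1.63. Of 15 tested, 9 were higher, all by at least 2-fold, and 2 were lower (4 after quantile normalization). Anxa1, at chr19:20373428-20390944, minus strand (GRCm38), rose from 7.63, 2.81 and 5.73 CPM at Day 10 to 79.4, 74.7 and 144 CPM in Day 12 +Fgf (log2 change 4.17, SE 0.31, limma adjusted p = 1.53e-08). S100a10, the partner of annexin A2, rose from 10.2, 7.02 and 11.00 to 37.6, 38.8 and 58.8 CPM (log2 change 2.22, SE 0.18, limma adjusted p = 5.3e-08). Anxa6 rose by 2.34, Anxa3 by 2.49 and Anxa5 by 1.63 on the log2 scale. S100a1 went the other way, from 24.4, 19.2 and 15.97 CPM to 3.74, 4.33 and 5.94 CPM (log2 change -2.02, SE 0.21, limma adjusted p = 6e-07).

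**Figure D3:**
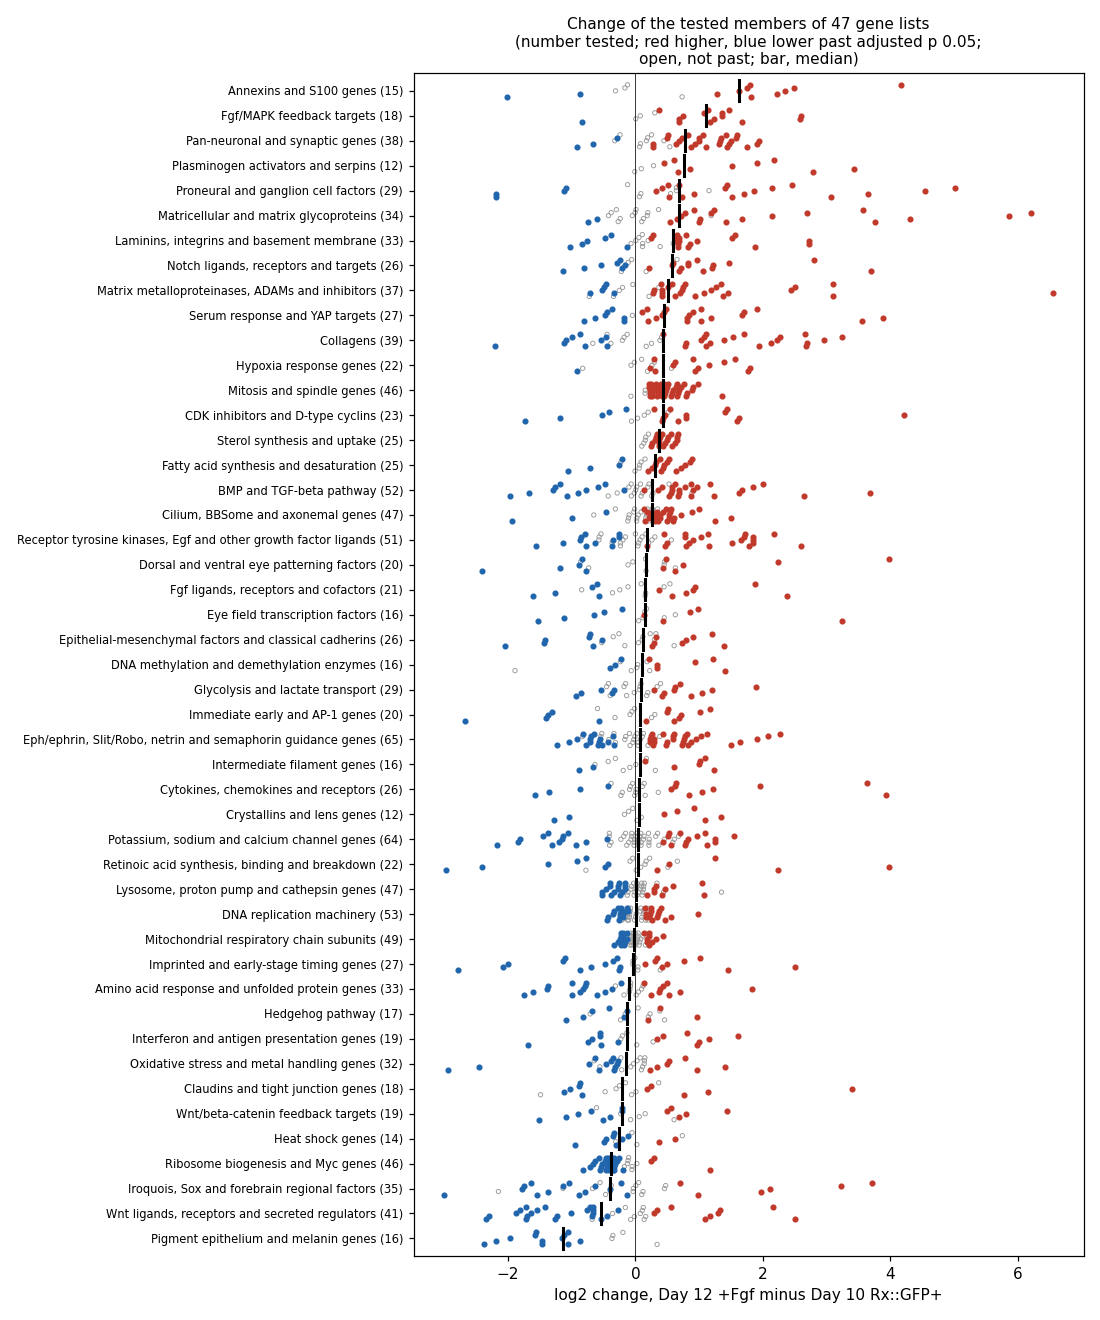
Log2 change from Day 10 Rx::GFP+ to Day 12 +Fgf (x axis) of each tested member of 47 gene lists (rows, ordered by median, with the number tested in brackets). Red points are higher and blue points lower past an adjusted p of 0.05, open points did not pass, and the black bar is the median, which runs from -1.13 for pigment genes to 1.63 for annexins and S100 genes.

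Of 16 tested intermediate filament genes, 6 were higher (3 at least 2-fold) and 2 lower, a share close to the 55.7% of all tested genes. Vim, the vimentin gene, was at 1081, 1022 and 1183 CPM at Day 10 and 1628, 1600.0 and 1762 CPM in Day 12 +Fgf (log2 change 0.60, SE 0.05, limma adjusted p = 1.32e-07). Nes, the gene of the progenitor filament nestin, rose from 200.3, 208 and 246 CPM at Day 10 to 436, 429 and 454 CPM in Day 12 +Fgf (log2 change 1.02, SE 0.11, limma adjusted p = 1.35e-06). Krt8, an epithelial keratin, rose from 16.6, 16.04 and 15.9 to 32.4, 30.1 and 43.4 CPM (log2 change 1.09, SE 0.39, limma adjusted p = 0.0259), a call lost without any of the Day 10 libraries or Day 12 +Fgf replicate 3 (0.93), or with RNA integrity as a covariate, while Nefl, a neurofilament gene, went from 14.6, 15.8 and 17.04 CPM to 11.6, 8.22 and 9.77 CPM (log2 change -0.67, SE 0.15).

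The list of epithelial-mesenchymal factors and classical cadherins showed 8 increases and 7 decreases among 26 tested genes, and 8 and 4 without Day 10 replicate 2. Cdh6 was at 13.97, 21.6 and 14.7 CPM at Day 10 and 41.7, 41.3 and 48.3 CPM in Day 12 +Fgf (log2 change 1.39, SE 0.15, limma adjusted p = 1.04e-06). Cdh20 rose from 18.3, 22.3 and 18.2 CPM at Day 10 to 45.8, 43.96 and 46.6 CPM in Day 12 +Fgf (log2 change 1.21, SE 0.08, limma adjusted p = 2.65e-09). Both are type II cadherins of neural tissue. Cdh11, of the same class and with the highest mean reading of the list at Day 10, rose from 484, 577 and 504 to 644, 606 and 702 CPM (log2 change 0.32, SE 0.07), and Cdh4, a retinal cadherin, rose by 0.79. Zeb2, a repressor of epithelial genes, was at 58.9, 74.1 and 74.3 CPM at Day 10 and 127, 119 and 139.8 CPM in Day 12 +Fgf (log2 change 0.90, SE 0.10). Cdh1, the epithelial E-cadherin, fell from 7.02, 7.15 and 9.17 CPM at Day 10 to 2.54, 4.46 and 1.66 CPM in Day 12 +Fgf (log2 change -1.43, SE 0.56, limma adjusted p = 0.0391), a call lost without any of 5 of the 6 libraries in turn (-1.13 without Day 12 +Fgf replicate 3) and with RNA integrity as a covariate (-1.78). Cdh8 and Cdh13 fell by 0.66 and 0.52. Junction genes were balanced as well, at 5 higher and 5 lower of 18 tested (3 and 4 with RNA integrity as a covariate). The main counts of this list and of the cadherin list were near the share of all tested genes (55.7% in either direction). Cldn11 rose from 0.545, 0.602 and 0.229 to 6.59, 7.45 and 8.56 CPM (log2 change 3.399, SE 0.26, limma adjusted p = 2.74e-08). Cldn1 was at 4.497, 5.95 and 4.05 CPM at Day 10 and 11.9, 11.3 and 9.58 CPM in Day 12 +Fgf (log2 change 1.14, SE 0.18). Cgn, the tight junction adaptor cingulin, fell from 45.5, 55.2 and 44.5 CPM at Day 10 to 29.3, 25.5 and 25.5 CPM in Day 12 +Fgf (log2 change -0.85, SE 0.12). Tjp1, the highest on average at Day 10, was at 155, 174 and 177 CPM at Day 10 and 171, 159.7 and 154 CPM in Day 12 +Fgf and overlapped.

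Genes of mitosis rose and genes of DNA replication did not move together. Of 46 mitosis and spindle genes, 43 were higher, none was lower and 3 did not pass, but the changes were small, with a median log2 change of 0.43 and 1 gene past 2-fold. That gene was Ccnb2, the cyclin B2 gene, at 35.02, 38.2 and 36.2 CPM at Day 10 and 96.5, 98.2 and 88.4 CPM in Day 12 +Fgf (log2 change 1.36, SE 0.06, limma adjusted p = 7.39e-11). Cenpa, the centromeric histone, rose from 60.7, 61.8 and 62.4 to 129, 121 and 115 CPM (log2 change 0.98, SE 0.05, limma adjusted p = 1.39e-10). Nusap1 and Pttg1 rose by 0.90 and 0.89 on the log2 scale, and Top2a, the highest on average at Day 10, was at 511, 576 and 559 CPM at Day 10 and 816, 829 and 766 CPM in Day 12 +Fgf (log2 change 0.55, SE 0.05). Of 53 replication genes, 15 were higher, 15 lower and 23 did not pass, with a median of 0.00. This was near the share of all tested genes (55.7% past the threshold in either direction). The subunits of the MCM helicase were among the decreases, with Mcm4 at 356, 416 and 371 CPM at Day 10 and 278, 289.5 and 266 CPM in Day 12 +Fgf (log2 change -0.45, SE 0.06). Mcm5 fell from 360.2, 367 and 350.5 CPM at Day 10 to 264, 277 and 256 CPM in Day 12 +Fgf (log2 change -0.43, SE 0.05). Pcna, the sliding clamp, fell from 519, 566 and 529 to 463, 462 and 443 CPM (log2 change -0.24, SE 0.05). Ccne2, a cyclin of S phase entry, was at 13.3, 20.8 and 15.7 CPM at Day 10 and 31.2, 32.9 and 32.9 CPM in Day 12 +Fgf (log2 change 0.97, SE 0.13), and Tk1 and E2f1 rose by 0.56 and 0.47. Against Day 12 +Wnt, 37 of the 53 replication genes and 34 of the 46 mitosis genes were higher in Day 12 +Fgf, with 1 and 0 lower.

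Among D-type cyclins and CDK inhibitors, 13 of 23 were higher and 5 lower. Ccnd1, the cyclin D1 gene, a target of mitogens and of Wnt signaling, rose from 172, 200.4 and 195 CPM at Day 10 to 509, 499 and 525 CPM in Day 12 +Fgf (log2 change 1.44, SE 0.14, limma adjusted p = 2.64e-07). Its Day 12 +Wnt libraries lay at 102, 70.2 and 74.6 CPM, lower than Day 10. Cdkn2b, a CDK inhibitor gene that TGF-β induces, rose from 0.273, 0.334 and 0.458 to 11.3, 7.52 and 18.7 CPM (log2 change 4.21, SE 0.29, limma adjusted p = 7.86e-09), and Cdkn2c rose by 1.63. Gadd45a was at 14.6, 15.98 and 17.3 CPM at Day 10 and 43.3, 39.3 and 45.4 CPM in Day 12 +Fgf (log2 change 1.402, SE 0.09). Cdkn1a, a CDK inhibitor gene and p53 target, fell from 161, 182 and 167 CPM at Day 10 to 71.5, 72.7 and 79.2 CPM in Day 12 +Fgf (log2 change -1.19, SE 0.07, limma adjusted p = 7.08e-10). Ccng1, cyclin G1, another p53 target, fell from 763, 783 and 795 to 221, 232 and 251 CPM (log2 change -1.74, SE 0.06, limma adjusted p = 1.34e-11), and both groups were tight. Mdm2 and Trp53 fell by 0.53 and 0.41 on the log2 scale.

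Ribosome biogenesis and Myc genes fell together by small amounts. Of 46 tested, 36 were lower, 3 higher and 7 did not pass, with a median log2 change of -0.38 and no decrease of 2-fold. Nat10, an RNA acetyltransferase of rRNA maturation, was at 103, 106 and 109 CPM at Day 10 and 62.05, 59.8 and 58.1 CPM in Day 12 +Fgf (log2 change -0.82, SE 0.06, limma adjusted p = 1.55e-08). Rrs1, Heatr1 and Utp20, all nucleolar assembly factors, fell by 0.72, 0.67 and 0.63. Npm1, nucleophosmin, fell from 3045, 3384 and 3137 CPM at Day 10 to 2395, 2516 and 2079 CPM in Day 12 +Fgf (log2 change -0.46, SE 0.07). Myc, which drives this gene set, fell from 115, 137 and 121 to 93.5, 81.9 and 76.4 CPM (log2 change -0.57, SE 0.15, limma adjusted p = 0.00354), while in Day 12 +Wnt it was at 7.61, 7.45 and 7.61 CPM. Mxd3, a repressive partner of Max, rose from 6.88, 5.08 and 6.11 CPM to 13.4, 14.2 and 13.9 CPM (log2 change 1.17, SE 0.11). In the direct test 30 of the 46 genes were higher in Day 12 +Fgf than in Day 12 +Wnt and 3 were lower.

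Metabolic genes changed by less than 2-fold in most cases. All 20 called genes of sterol synthesis and uptake, of 25 tested, were higher, with a median log2 change of 0.37 and none at 2-fold. With RNA integrity as a covariate, 15 were higher and 1 was lower. Hmgcs1, an early enzyme of the pathway, was at 442, 471 and 448 CPM at Day 10 and 708, 819.8 and 619 CPM in Day 12 +Fgf (log2 change 0.65, SE 0.08, limma adjusted p = 4.94e-06), and Fdps and Insig1 rose by 0.65 and 0.62. For all 3 genes replicate 2 was the highest and replicate 3 the lowest of the Day 12 +Fgf libraries. Of 25 fatty acid genes, 15 were higher and 4 lower. Scd1, a desaturase, rose from 81.8, 82.2 and 93.9 CPM at Day 10 to 157, 201 and 126 CPM in Day 12 +Fgf (log2 change 0.89, SE 0.12). Its paralog Scd2 rose from 1417, 1441 and 1483 to 2359.5, 2588 and 2205 CPM (log2 change 0.72, SE 0.05). Cpt1a, which admits fatty acids to mitochondria for oxidation, was at 50.97, 49.9 and 38.5 CPM at Day 10 and 29.1, 23.3 and 32.9 CPM in Day 12 +Fgf (log2 change -0.71, SE 0.13).

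Genes of glucose use moved both ways. Of 29 glycolysis and lactate transport genes, 10 were higher and 5 lower, near the share of all tested genes (55.7% in either direction), and 7 and 7 with RNA integrity as a covariate. Slc2a1, a glucose transporter, rose from 417, 397 and 442 CPM at Day 10 to 837, 845 and 899 CPM in Day 12 +Fgf (log2 change 1.04, SE 0.09, limma adjusted p = 7.17e-08), while the transporter Slc2a3 fell by 0.86. Hk1, a hexokinase, rose from 27.7, 25.9 and 32.1 to 69.3, 62.1 and 66.3 CPM (log2 change 1.203, SE 0.08). Slc16a3, a lactate exporter, was at 10.6, 15.4 and 9.78 CPM at Day 10 and 35.7, 80.1 and 30.6 CPM in Day 12 +Fgf (log2 change 1.899, SE 0.35), with replicate 2 far above the other replicates. Ldhb fell from 363, 368 and 325 CPM at Day 10 to 185, 189 and 176 CPM in Day 12 +Fgf (log2 change -0.94, SE 0.05). Gapdh fell from 3231, 3339 and 3190.3 to 2572, 2844 and 2341 CPM (log2 change -0.34, SE 0.07). Of 22 hypoxia response genes, 13 were higher and 1 lower, and 6 and 1 with RNA integrity as a covariate. Bnip3, a mitophagy receptor induced by hypoxia, was at 33.4, 39.7 and 30.6 CPM at Day 10 and 73.3, 153 and 66.8 CPM in Day 12 +Fgf (log2 change 1.397, SE 0.24), again with replicate 2 standing apart. Stc1, stanniocalcin, rose from 5.79, 6.22 and 5.65 CPM at Day 10 to 18.4, 20.5 and 24.7 CPM in Day 12 +Fgf (log2 change 1.79, SE 0.12), and P4ha1 rose by 0.90. Hif1a was at 329, 319 and 325 CPM at Day 10 and 309, 316 and 338 CPM in Day 12 +Fgf and overlapped. Of 49 respiratory chain subunits, 9 were higher and 14 lower, the largest at 0.44 for Ndufb3 and -0.34 for Ndufa10, and the balance changed with the setting, to 8 and 4 with RNA integrity as a covariate and to 8 and 7 after quantile normalization.

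The amino acid response and unfolded protein list, 9 higher and 14 lower of 33 tested, held decreases and increases of different kinds of gene. All 14 decreases were genes of amino acid synthesis, import or sensing, of folate-linked serine use or of the Atf4 response to amino acid shortage. Asns, asparagine synthetase, fell from 151, 165 and 171 to 62.2, 68.5 and 54.4 CPM (log2 change -1.396, SE 0.12, limma adjusted p = 8.37e-08). Sesn2, which senses leucine, was at 117, 189 and 119 CPM at Day 10 and 39.99, 44.02 and 38.5 CPM in Day 12 +Fgf (log2 change -1.75, SE 0.13, limma adjusted p = 1.68e-08). Slc7a3, a cationic amino acid transporter, fell to 8.56, 7.58 and 7.03 CPM (log2 change -1.37, SE 0.13), and Trib3 to 1.901, 2.74 and 1.53 CPM from 4.63, 13.7 and 4.66 CPM (log2 change -1.601, SE 0.32), where Day 10 replicate 2 stood apart. The 3 enzymes of serine synthesis, chosen after their values were seen, fell as well, Phgdh by 0.99, Psat1 by 0.87 and Psph by 0.60 on the log2 scale. Most of the 9 increases were genes of protein folding in the endoplasmic reticulum, with Pdia4 at 150.1, 135 and 150.1 CPM at Day 10 and 238, 231 and 236 CPM in Day 12 +Fgf (log2 change 0.70, SE 0.05, limma adjusted p = 1.11e-08), Pdia6 up by 0.52, Xbp1 by 0.50 and Manf by 0.42. Hspa5, the chaperone BiP and the highest mean reading at Day 10, rose from 969.6, 904 and 919.9 CPM at Day 10 to 1022, 1011 and 1036 CPM in Day 12 +Fgf (log2 change 0.14, SE 0.05), a small change whose call was lost without Day 10 replicate 2 or 3 or Day 12 +Fgf replicate 3 (0.12 to 0.13).

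The element bound by Atf4 and its partners (TGATGNAA, searched on both strands in the same windows) was found in 2.4% of the 10919 promoters, in 3.57% of those of genes at least 2-fold higher and in 3.47% of those at least 2-fold lower. Of 28 list members with a sequence, 6 held it. These were 1 of the 8 matched members that were higher, 1 of the 11 that were lower, and members that did not pass. Most of the decreases searched thus lacked the element. Herpud1, Slc7a11 and Vldlr held it and are not shown. The stretches of 3 were picked because their genes moved differently, so they do not show how common each direction was. The element is in capitals.
Asns: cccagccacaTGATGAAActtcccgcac
Chac1: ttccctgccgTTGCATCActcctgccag
Nupr1: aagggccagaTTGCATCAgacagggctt

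They lie at chr6:7693215-7693242 (minus strand) for Asns, chr2:119351039-119351066 (plus) for Chac1 and chr7:126625563-126625590 (minus) for Nupr1, each before the RefSeq start. Chac1 and Nupr1 were chosen after their values were seen. Chac1, a glutathione-degrading enzyme, was at 3.82, 10.3 and 2.37 CPM at Day 10 and 5.51, 5.99 and 3.77 CPM in Day 12 +Fgf and overlapped (limma adjusted p = 0.783). Nupr1, a stress-induced nuclear protein, rose from 0.204, 0.669 and 0.535 CPM to 1.71, 1.78 and 4.02 CPM (log2 change 1.82, SE 0.30, limma adjusted p = 9e-05). Asns fell, as given above.

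The metallothioneins, which bind zinc and copper, had the largest decreases of the oxidative stress and metal list (7 higher and 12 lower of 32). Mt1 fell from 91.9, 74.7 and 87.4 to 13.1, 18.6 and 14.5 CPM (log2 change -2.45, SE 0.15, limma adjusted p = 2.29e-09), 5.503-fold higher at Day 10 on the CPM scale. Mt2 was at 68.3, 57.8 and 71.8 CPM at Day 10 and 7.92, 11.9 and 6.01 CPM in Day 12 +Fgf (log2 change -2.94, SE 0.34, limma adjusted p = 2.05e-06). The 2 genes are neighbours on chromosome 8 and moved alike. Srxn1, an antioxidant enzyme under Nrf2, went from 41.5, 49.4 and 45.8 CPM to 26.6, 26.4 and 29.4 CPM (log2 change -0.72, SE 0.08). Ftl1, a ferritin chain, fell from 1310.5, 1389 and 1217 CPM at Day 10 to 979, 986 and 881 CPM in Day 12 +Fgf (log2 change -0.46, SE 0.08). In the opposite direction, Cp, the copper-carrying ferroxidase ceruloplasmin, was at 53.8, 85.3 and 81.2 CPM at Day 10 and 217, 137 and 237 CPM in Day 12 +Fgf (log2 change 1.41, SE 0.19), its membrane homolog Heph rose by 0.97, and the zinc importer Slc39a10 was at 135, 135 and 139.7 CPM at Day 10 and 236, 233 and 234 CPM in Day 12 +Fgf (log2 change 0.78, SE 0.04). Heat shock genes were mostly lower, 8 of 14 against 2 higher, and by small amounts. Hspa8 fell from 4673, 4495 and 4607 to 3454, 3403 and 3186 CPM (log2 change -0.46, SE 0.05). Hspd1 was at 1134, 1159 and 1142 CPM at Day 10 and 866, 833 and 757 CPM in Day 12 +Fgf (log2 change -0.49, SE 0.05), while Hspb8 rose by 0.62.

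The list of eye field genes, mostly transcription factors that define optic progenitors, moved both ways. Of 16 tested, 5 were higher (1 at least 2-fold) and 5 lower (2 at least 2-fold), near the share of all tested genes (55.7% in either direction), and 2 and 5 with RNA integrity as a covariate. Rax, the gene of the reporter, rose from 174, 157 and 163 CPM at Day 10 to 209, 226 and 230.3 CPM in Day 12 +Fgf (log2 change 0.43, SE 0.08, limma adjusted p = 0.000373). Six3 at 179, 202 and 176 CPM at Day 10 and 212, 187 and 230.2 CPM in Day 12 +Fgf and Six6 at 273, 318 and 285 CPM at Day 10 and 335, 287 and 329 CPM in Day 12 +Fgf overlapped and did not pass, nor did Sox2, at 218, 259.7 and 249 CPM at Day 10 and 266, 267 and 267 CPM in Day 12 +Fgf (limma adjusted p = 0.0687). Six3 and Sox2 passed without Day 10 replicate 2 (0.24 and 0.20), and Six3 without Day 12 +Fgf replicate 2 (0.25). Pax6 was at 514, 621 and 539.8 CPM at Day 10 and 620.3, 601 and 619.8 CPM in Day 12 +Fgf, which overlapped, and its small change (log2 change 0.14, SE 0.05, limma adjusted p = 0.0362) did not hold in 7 alternatives (0.08 without Day 10 replicate 1). Lhx2, needed for the optic vesicle, fell from 471, 495 and 465 to 325, 278 and 305 CPM (log2 change -0.66, SE 0.07, limma adjusted p = 8.13e-07). Lhx9 was at 4.97, 4.68 and 6.88 CPM at Day 10 and 1.77, 3.44 and 0.703 CPM in Day 12 +Fgf (log2 change -1.53, SE 0.33), with the Day 12 +Fgf libraries spread. Nr2e1 rose from 17.9, 26.7 and 29.4 CPM at Day 10 to 42.9, 57.4 and 44.2 CPM in Day 12 +Fgf (log2 change 0.97, SE 0.19), a call lost with RNA integrity as a covariate (0.58). The largest change was that of Optc, a small leucine-rich proteoglycan of the ciliary margin and vitreous, at 6.34, 5.15 and 7.34 CPM at Day 10 and 60.5, 56.96 and 67.1 CPM in Day 12 +Fgf (log2 change 3.24, SE 0.20, limma adjusted p = 2.51e-09).

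Pigment genes fell. Of 16 tested genes of the pigment epithelium and of melanin synthesis, 12 were lower, 11 of them at least 2-fold, none was higher and 4 did not pass, with a median log2 change of -1.13. Over all tested genes the shares were 27.8% lower and 3.63% lower by at least 2-fold. Pmel, which builds the fibrils of melanosomes, fell from 694, 513 and 472 to 109.7, 127 and 126 CPM (log2 change -2.19, SE 0.15, limma adjusted p = 7.81e-09). Its exons overlap Cdk2 and Dgka on the other strand. Tyr, tyrosinase, at chr7:87424771-87493512, minus strand (GRCm38), was at 71.5, 48.6 and 40.6 CPM at Day 10 and 13.2, 20.3 and 19.5 CPM in Day 12 +Fgf (log2 change -1.57, SE 0.18, limma adjusted p = 2.09e-06). Slc45a2, a melanosome transporter, fell from 19.4, 12.2 and 11.1 CPM at Day 10 to 1.58, 3.38 and 2.56 CPM in Day 12 +Fgf (log2 change -2.38, SE 0.26, limma adjusted p = 1.18e-06). Mitf, the factor that controls pigment genes (chosen after its values were seen), fell from 141, 119 and 118 to 56.2, 58.1 and 58.9 CPM (log2 change -1.12, SE 0.07). Otx2, which acts with it, was at 188, 218 and 177 CPM at Day 10 and 93.7, 101 and 73.98 CPM in Day 12 +Fgf (log2 change -1.12, SE 0.09, limma adjusted p = 3.98e-08). For each of these genes every Day 12 +Fgf library lay below every Day 10 library, which the naming rule required except for Mitf. Against Day 12 +Wnt, all 16 genes of the list were lower in Day 12 +Fgf. Day 12 +Wnt stood at 163, 145 and 127 CPM for Tyr, above the Day 10 values, and at 853, 724 and 575 CPM for Pmel.

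Retinoic acid genes held some of the largest single changes in both directions. The list as a whole had 5 higher and 7 lower of 22, near the share of all tested genes (55.7% in either direction). Cyp26a1, the enzyme that breaks down retinoic acid, at chr19:37697798-37701536, plus strand (GRCm38), rose from 5.45, 3.74 and 5.73 CPM at Day 10 to 65.7, 85.4 and 95.6 CPM in Day 12 +Fgf (log2 change 3.97, SE 0.42, limma adjusted p = 8.86e-07). Aldh1a1, an enzyme that makes it and a marker of the dorsal retina, fell from 596, 552 and 763 to 37.1, 291 and 155 CPM (log2 change -2.405, SE 0.51, limma adjusted p = 0.000751). Its Day 12 +Fgf libraries differed widely among themselves, with a log2 change of -1.57 without replicate 1, and the call was lost with RNA integrity as a covariate (-1.39). Rxrg, a retinoid receptor, was at 35.7, 28.5 and 31.3 CPM at Day 10 and 4.06, 4.59 and 2.87 CPM in Day 12 +Fgf (log2 change -2.97, SE 0.16, limma adjusted p = 6.38e-10). Of the binding proteins, Crabp2 fell from 513, 532 and 471 CPM to 267, 302 and 233 CPM (log2 change -0.92, SE 0.08) and Rbp4 fell by 1.37.

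The direction of the dorsal and ventral patterning list depended on single libraries. Of 20 tested, 6 were higher and 5 lower, near the share of all tested genes (55.7% in either direction). The numbers were 4 and 5 without Day 10 replicate 1 or without Day 12 +Fgf replicate 1. Bmp4, the dorsal signal, fell from 44.8, 34.4 and 43.8 CPM at Day 10 to 17.7, 19.7 and 15.8 CPM in Day 12 +Fgf (log2 change -1.19, SE 0.20, limma adjusted p = 8.94e-05). Nr2f1 and Nr2f2, orphan nuclear receptors of the optic vesicle, fell by 0.89 and 0.84. Efnb2, a dorsal ephrin, rose from 175, 208 and 212 to 242, 281 and 281 CPM (log2 change 0.44, SE 0.10), and Ephb2, a ventral receptor, rose by 0.48. A few members, chosen after their values were seen, differed widely between the Day 12 +Fgf replicates. Pax2, of the ventral vesicle and optic stalk, was at 51.8, 20.96 and 53.2 CPM, Tbx5, of the dorsal retina, at 3.87, 18.4 and 15.6 CPM and Vax2, of the ventral retina, at 64.6, 27.1 and 53.7 CPM. None of these 3 passed.

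Factors of retinal neurogenesis rose from low levels. Of 29 proneural and ganglion cell factors tested, 18 were higher (11 at least 2-fold) and 4 lower (all 4 at least 2-fold). In the direct test of this list, 8 genes were higher and 14 lower in Day 12 +Fgf than in Day 12 +Wnt. Atoh7, which makes progenitors competent to form ganglion cells, was at 0.0681, 0.0669 and 0.764 CPM at Day 10 and 10.96, 10.9 and 13.9 CPM in Day 12 +Fgf (log2 change 4.54, SE 0.31, limma adjusted p = 6.56e-09). Pou4f2, a ganglion cell factor, rose from 0, 0.134 and 0.153 CPM at Day 10 to 14.01, 8.47 and 15.5 CPM in Day 12 +Fgf, with at most 2 reads in any Day 10 library. Against a floor of 3 reads per library, its mean CPM was at least 55.2-fold higher, a bound that covers counting error only. Isl1, another ganglion cell factor, rose from 2.59, 3.14 and 1.91 to 26.05, 15.6 and 30.4 CPM (log2 change 3.06, SE 0.30, limma adjusted p = 3.68e-07). Foxn4, a factor of horizontal and amacrine cell progenitors, was at 2.45, 2.47 and 2.22 CPM at Day 10 and 30.5, 38.5 and 30.98 CPM in Day 12 +Fgf (log2 change 3.64, SE 0.14, limma adjusted p = 2.43e-11). For Pou4f2 and Isl1 replicate 2 of Day 12 +Fgf was the lowest. Crx, a photoreceptor factor also found in pigment epithelium, fell from 9.403, 6.75 and 10.3 CPM at Day 10 to 1.14, 2.99 and 1.34 CPM in Day 12 +Fgf (log2 change -2.18, SE 0.24, limma adjusted p = 1.5e-06).

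Pan-neuronal and synaptic genes rose too, 26 higher (14 at least 2-fold) and 3 lower of 38 (22 and 5 without Day 12 +Fgf replicate 2), with a median log2 change of 0.77. Dpysl3, a growth cone protein, rose from 33.7, 33.5 and 36.8 to 122, 116 and 155 CPM (log2 change 1.901, SE 0.10, limma adjusted p = 3.83e-10). Stmn4, a tubulin-binding protein of neurons, was at 2.45, 1.74 and 3.67 CPM at Day 10 and 9.89, 14.3 and 8.18 CPM in Day 12 +Fgf (log2 change 1.94, SE 0.24), Scg3, of secretory granules, at 1.57, 2.41 and 3.21 CPM at Day 10 and 8.24, 9.43 and 7.73 CPM in Day 12 +Fgf (log2 change 1.74, SE 0.20) and Cntn2, an axonal adhesion molecule, at 7.495, 6.42 and 9.02 CPM at Day 10 and 26.3, 25.7 and 18.8 CPM in Day 12 +Fgf (log2 change 1.59, SE 0.16). These 3 were higher still in Day 12 +Wnt, at 16.5, 19.5 and 31.9 CPM for Stmn4, 15.1, 20.9 and 28.3 CPM for Scg3 and 68.6, 78.3 and 96.4 CPM for Cntn2. In the direct test of the list 4 genes were higher and 28 lower in Day 12 +Fgf than in Day 12 +Wnt. Vamp2 fell by 0.29 on the log2 scale, and Stmn1, the highest on average at Day 10, was at 795, 865 and 768 CPM at Day 10 and 964, 1019 and 946 CPM in Day 12 +Fgf (log2 change 0.27, SE 0.06).

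Of 26 Notch pathway genes, 14 were higher and 7 lower. The ligand Dll4 rose from 0.545, 0.535 and 1.299 CPM at Day 10 to 13.8, 11.1 and 15.01 CPM in Day 12 +Fgf (log2 change 3.700, SE 0.20, limma adjusted p = 6.26e-10). The ligand Jag1, of the ciliary margin and lens, rose from 70.7, 83.4 and 71.9 to 184, 195 and 249.7 CPM (log2 change 1.46, SE 0.09, limma adjusted p = 3.21e-09), whereas Jag2 fell by 0.55. Of the targets, Hey1 was at 12.9, 12.7 and 14.3 CPM at Day 10 and 31.7, 31.5 and 29.4 CPM in Day 12 +Fgf (log2 change 1.199, SE 0.10). Hey2 fell from 9.403, 8.09 and 8.18 CPM at Day 10 to 4.06, 5.29 and 5.05 CPM in Day 12 +Fgf (log2 change -0.80, SE 0.14). The 2 paralogs moved in opposite directions. Mfng, which modifies the receptor, rose by 1.22, and the receptor Notch2 fell by 0.24, a call lost with RNA integrity as a covariate (-0.22).

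More genes of the Wnt pathway fell than rose. Of 19 feedback targets, 8 were lower and 5 higher. Axin2, the target most used as a readout, fell from 76.3, 82.9 and 85.2 to 31.2, 37.7 and 19.3 CPM (log2 change -1.51, SE 0.23, limma adjusted p = 3.43e-05). Sp5 was at 11.1, 10.4 and 13.8 CPM at Day 10 and 6.27, 5.67 and 4.22 CPM in Day 12 +Fgf (log2 change -1.09, SE 0.32), and Tcf7 and Lef1, the DNA-binding partners of β-catenin, fell by 0.90 and 0.70. The largest increase of this list was that of Ccnd1, given above (log2 change 1.44). Kremen1 rose by 0.79, and Apcdd1 by 0.68, a call that was lost in 5 alternatives (0.32 with RNA integrity as a covariate). Without Day 10 replicate 1 or 2, 3 of this list were higher and 7 lower. In Day 12 +Wnt, Axin2 was at 174, 180.3 and 199 CPM, above all Day 10 libraries.

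Of 41 ligands, receptors and secreted regulators, 22 were lower (13 at least 2-fold) and 9 higher (6 at least 2-fold), with a median log2 change of -0.55, and 16 were lower and 7 higher without Day 12 +Fgf replicate 3. Wnt4 fell from 5.86, 3.94 and 5.65 CPM at Day 10 to 0.887, 0.828 and 0.575 CPM in Day 12 +Fgf (log2 change -2.35, SE 0.25, limma adjusted p = 8.78e-07). Wnt3a fell from 9.68, 6.22 and 9.704 to 2.599, 3.504 and 0.894 CPM (log2 change -1.88, SE 0.42, limma adjusted p = 0.00122). Wnt8b was at 55.1, 48.5 and 61.1 CPM at Day 10 and 27.6, 26.1 and 6.01 CPM in Day 12 +Fgf (log2 change -1.72, SE 0.57, limma adjusted p = 0.017). Rspo3, which amplifies Wnt signaling, fell from 34.00, 24.5 and 34.2 CPM at Day 10 to 10.6, 19.2 and 3.58 CPM in Day 12 +Fgf (log2 change -1.71, SE 0.56, limma adjusted p = 0.0158). In both, replicate 3 of Day 12 +Fgf was the lowest by far, and the calls were lost without it (log2 changes -1.02 and -1.08). The increases were led by Wnt9b and by secreted regulators. Wnt9b was at 3.54, 2.07 and 1.22 CPM at Day 10 and 11.4, 10.3 and 20.2 CPM in Day 12 +Fgf (log2 change 2.504, SE 0.36). Dkk3, a Dickkopf family gene, rose from 102, 101 and 114 to 451, 437 and 532 CPM (log2 change 2.16, SE 0.08, limma adjusted p = 2.43e-11). Sfrp2, which binds Wnt ligands, was at 657, 679 and 689.7 CPM at Day 10 and 1701, 1557 and 1812 CPM in Day 12 +Fgf (log2 change 1.32, SE 0.06, limma adjusted p = 1.81e-10). Both were much lower in Day 12 +Wnt, at 12.96, 13.2 and 14.8 CPM for Dkk3 and 88.8, 82.96 and 78.05 CPM for Sfrp2. Lrp5, a Wnt co-receptor, rose by 0.55.

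**Figure D4:**
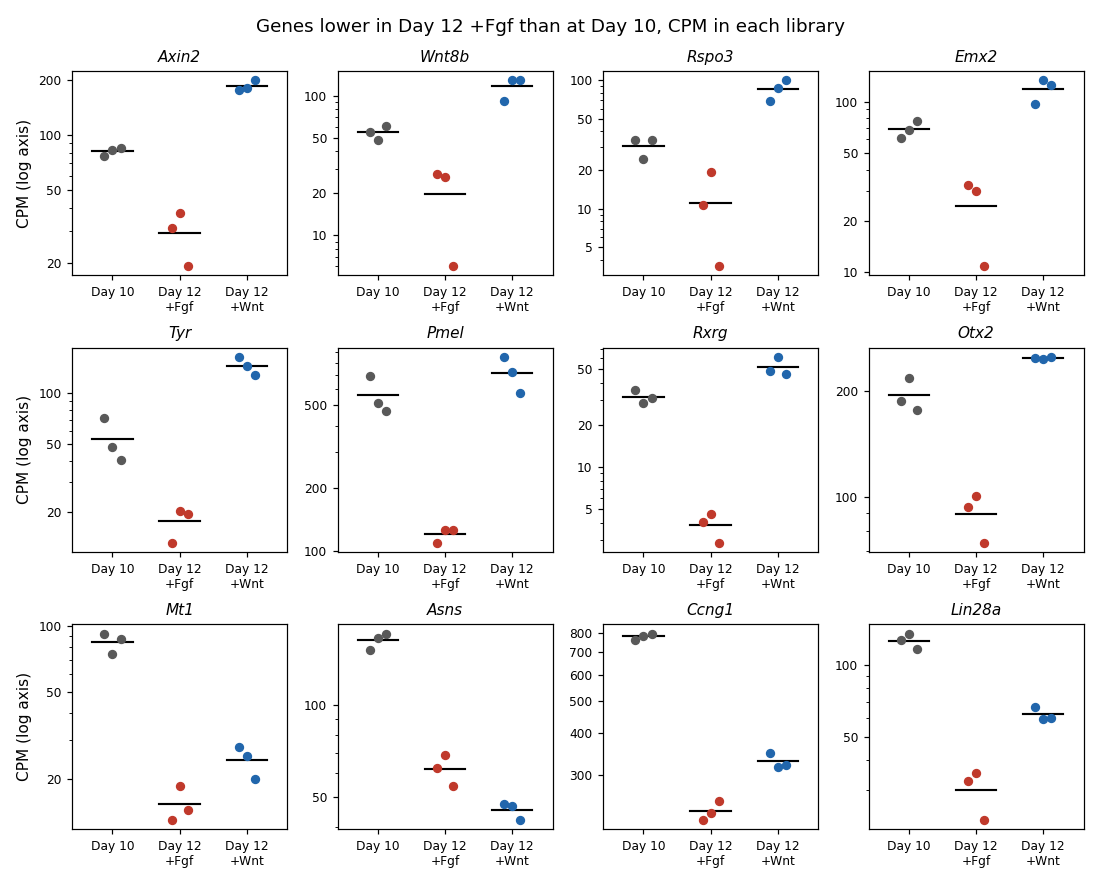
CPM on a log axis in each library of Day 10 (grey), Day 12 +Fgf (red) and Day 12 +Wnt (blue) for 12 genes that fell, with a bar at the mean of 3 replicates. All Day 12 +Fgf libraries lie below all Day 10 libraries in each panel, a condition of the rule by which genes were named. For Wnt8b, Rspo3 and Emx2 replicate 3 of Day 12 +Fgf lies well below the others.

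In the BMP and TGF-β pathway, the largest increases were in genes of the TGF-β and activin branch, and several BMP ligands fell. Of 52 tested, 24 were higher and 11 lower. Tgfb1 rose from 0.886, 0.669 and 0.688 CPM at Day 10 to 11.3, 9.24 and 21.1 CPM in Day 12 +Fgf (log2 change 3.68, SE 0.28, limma adjusted p = 1.83e-08). Inhba, the activin A subunit, rose from 0.273, 0.869 and 0.535 to 4.44, 3.44 and 7.35 CPM (log2 change 2.64, SE 0.35, limma adjusted p = 8.34e-06). Fst, follistatin, which binds activins, was at 6.81, 9.29 and 6.19 CPM at Day 10 and 28.7, 26.4 and 35.9 CPM in Day 12 +Fgf (log2 change 1.996, SE 0.18, limma adjusted p = 1.46e-07). Tgfbi, a matrix protein induced by TGF-β, rose from 4.91, 4.41 and 5.04 CPM at Day 10 to 15.5, 15.7 and 23.6 CPM in Day 12 +Fgf (log2 change 1.84, SE 0.17). Bmp7, a ligand of the pigment epithelium and dorsal vesicle, fell from 104, 86.04 and 97.3 to 26.7, 30.7 and 17.5 CPM (log2 change -1.96, SE 0.18, limma adjusted p = 1.88e-07). Bmp6 was at 6.68, 5.35 and 6.04 CPM at Day 10 and 2.09, 3.504 and 1.53 CPM in Day 12 +Fgf (log2 change -1.301, SE 0.23). Like Bmp4, they were lower in every Day 12 +Fgf library than in any Day 10 library, which the naming rule required. Tgfbr3, a co-receptor, fell by 1.26, and Tgfbr1, the highest on average at Day 10, was at 325, 358 and 322 CPM at Day 10 and 321, 311 and 327 CPM in Day 12 +Fgf and overlapped. Of 17 hedgehog genes, 3 were higher and 6 lower, near the share of all tested genes (55.7% in either direction). Gli3 was at 137, 163 and 150.1 CPM at Day 10 and 84.4, 94.8 and 74.7 CPM in Day 12 +Fgf (log2 change -0.83, SE 0.09). Scube3 was at 92.9, 90.9 and 82.9 CPM at Day 10 and 42.3, 43.4 and 39.2 CPM in Day 12 +Fgf (log2 change -1.09, SE 0.08). Gas1 was at 345, 332 and 298 CPM at Day 10 and 217, 215 and 178 CPM in Day 12 +Fgf (log2 change -0.68, SE 0.09).

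Of 51 receptor tyrosine kinases and growth factor ligands, 22 were higher (13 at least 2-fold) and 11 lower. The numbers were 20 and 7 without Day 10 replicate 1, 20 and 6 without Day 12 +Fgf replicate 1 and 20 and 7 without Day 12 +Fgf replicate 3. Hbegf, an Egf family ligand, rose from 9.68, 17.2 and 11.2 CPM at Day 10 to 38.2, 35.04 and 59.2 CPM in Day 12 +Fgf (log2 change 1.78, SE 0.20, limma adjusted p = 2.02e-06). Egfr, its receptor, rose from 1.77, 2.07 and 2.22 to 8.05, 7.33 and 8.69 CPM (log2 change 1.84, SE 0.22, limma adjusted p = 2.57e-06). Igfbp3, a binding protein of insulin-like growth factors, was at 8.99, 10.2 and 7.87 CPM at Day 10 and 39.04, 45.1 and 41.3 CPM in Day 12 +Fgf (log2 change 2.18, SE 0.14, limma adjusted p = 3.47e-09), while Igfbp5, the highest on average at Day 10, was at 534, 450.0 and 437 CPM at Day 10 and 441, 358 and 481 CPM in Day 12 +Fgf and overlapped (log2 change -0.16, and -0.25 with a call without Day 12 +Fgf replicate 3). Ret rose by 1.84. Pdgfa was at 15.2, 18.3 and 13.2 CPM at Day 10 and 6.72, 6.63 and 7.22 CPM in Day 12 +Fgf (log2 change -1.14, SE 0.15), and Met and Mertk, the latter used by pigment epithelium to take up outer segments, fell by 0.79 and 0.87, the latter call being lost with RNA integrity as a covariate (-0.49).

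Axon guidance genes moved both ways, 28 higher (7 at least 2-fold) and 16 lower (2 at least 2-fold) of 65. Semaphorin receptors and ligands led the increases. Nrp1, neuropilin 1, was at 3.27, 3.68 and 4.05 CPM at Day 10 and 14.2, 13.5 and 15.97 CPM in Day 12 +Fgf (log2 change 1.91, SE 0.12, limma adjusted p = 2.65e-09), Plxnd1 at 21.7, 20.2 and 21.4 CPM at Day 10 and 63.9, 52.8 and 87.7 CPM in Day 12 +Fgf (log2 change 1.65, SE 0.14, limma adjusted p = 7.71e-08), Sema3d at 10.4, 9.96 and 10.9 CPM at Day 10 and 38.1, 39.9 and 59.3 CPM in Day 12 +Fgf (log2 change 2.08, SE 0.15) and Sema6d at 2.38, 2.27 and 2.22 CPM at Day 10 and 11.9, 10.4 and 14.4 CPM in Day 12 +Fgf (log2 change 2.26, SE 0.16). Plxnd1 and Sema3d were lower in Day 12 +Wnt than at Day 10, at 3.27, 3.62 and 4.57 and 2.89, 2.71 and 3.51 CPM. The Slit ligand Slit3 fell from 11.2, 11.6 and 10.5 CPM at Day 10 to 4.12, 4.71 and 4.86 CPM in Day 12 +Fgf (log2 change -1.23, SE 0.17). The receptor Robo1 fell from 146, 109.6 and 131 to 70.2, 73.1 and 72.3 CPM (log2 change -0.83, SE 0.09). Neo1, the netrin receptor neogenin, was at 246, 287 and 249 CPM at Day 10 and 250.5, 237 and 247 CPM in Day 12 +Fgf and overlapped.

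Regional factors of the forebrain fell more often than they rose, 14 lower (8 at least 2-fold) and 6 higher of 35. In either direction, 57.1% passed, near the 55.7% of all tested genes. Dmrt3, of the dorsal forebrain, was at 25.5, 20.6 and 25.7 CPM at Day 10 and 3.36, 5.35 and 1.02 CPM in Day 12 +Fgf (log2 change -3.000, SE 0.55, limma adjusted p = 0.000242). Its relative Dmrta2 fell from 44.3, 35.5 and 48.5 CPM at Day 10 to 13.1, 26.4 and 8.497 CPM in Day 12 +Fgf (log2 change -1.54, SE 0.29). Emx2 fell from 61.5, 68.7 and 77.5 to 32.5, 29.9 and 10.9 CPM (log2 change -1.64, SE 0.67, limma adjusted p = 0.0472), a call lost without Day 12 +Fgf replicate 3 (log2 change -1.14) or without any of the Day 10 libraries (-1.72 to -1.55). Sox21 fell by 1.75. For Dmrt3, Dmrta2 and Emx2 replicate 3 of Day 12 +Fgf was the lowest, as for Wnt8b and Rspo3. The marker list of telencephalon and diencephalon had 2 higher and 2 lower of 10. Dlx1 was at 0.136, 0.334 and 0.229 CPM at Day 10 and 6.34, 6.37 and 7.22 CPM in Day 12 +Fgf (log2 change 3.72, SE 0.30, limma adjusted p = 4.38e-08). Dlx2 rose from 0.273, 1.003 and 0.764 CPM at Day 10 to 6.97, 9.302 and 9.07 CPM in Day 12 +Fgf (log2 change 3.23, SE 0.31). Both are homeobox factors of the ventral forebrain that early retinal neurons also use. Nkx6-2 rose by 2.11.

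Of 27 tested imprinted genes and genes of early developmental timing, 9 were higher (3 at least 2-fold) and 12 lower (5 at least 2-fold). Lin28a, an RNA-binding protein of early embryonic cells, fell from 127, 135 and 117 to 32.5, 35.04 and 22.4 CPM (log2 change -2.08, SE 0.50, limma adjusted p = 0.00211). Prtg, protogenin, was at 177, 214 and 174 CPM at Day 10 and 50.4, 52.3 and 38.1 CPM in Day 12 +Fgf (log2 change -2.01, SE 0.10, limma adjusted p = 3.4e-10). The decrease of pluripotent cell markers given above moved with these genes, and its part in them was not tested. Phlda2, an imprinted gene, fell from 4.91, 8.69 and 5.81 CPM at Day 10 to 0.5704, 0.637 and 0.767 CPM in Day 12 +Fgf (log2 change -2.79, SE 0.26). Grb10, an imprinted adaptor that inhibits insulin and Igf receptors, at chr11:11930508-12038683, minus strand (GRCm38), rose from 34.8, 42.7 and 57.8 to 295, 179 and 302 CPM (log2 change 2.503, SE 0.21, limma adjusted p = 8.02e-08). Plagl1, an imprinted zinc finger factor, was at 474, 619 and 608 CPM at Day 10 and 1493, 1446 and 1683 CPM in Day 12 +Fgf (log2 change 1.45, SE 0.10, limma adjusted p = 7.46e-09). Mest, the highest on average at Day 10, rose from 2810.2, 2985 and 2825 CPM at Day 10 to 3950.2, 4315 and 3921 CPM in Day 12 +Fgf (log2 change 0.50, SE 0.06). In Day 12 +Wnt, Grb10 was at 2.45, 3.202 and 4.44 CPM and Plagl1 at 149, 126 and 130.5 CPM, both below Day 10. Of 16 DNA methylation genes, 6 were higher and 3 lower, near the share of all tested genes (55.7% in either direction). The de novo methyltransferase Dnmt3a was at 106, 100.4 and 111 CPM at Day 10 and 244, 243 and 247 CPM in Day 12 +Fgf (log2 change 1.21, SE 0.05, limma adjusted p = 2.43e-11). The maintenance enzyme Dnmt1 was at 323, 376 and 349 CPM at Day 10 and 365, 359 and 338 CPM in Day 12 +Fgf, which overlapped.

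Channel genes had the smallest share past the threshold of the 47 lists, 14 higher and 13 lower of 64, but 10 of the decreases were at least 2-fold. The numbers were 11 and 12 without Day 10 replicate 2, and 9 and 11 with RNA integrity as a covariate. Kcnj13, a potassium channel of the pigment epithelium, fell from 6.95, 5.88 and 5.35 to 1.39, 0.828 and 1.15 CPM (log2 change -2.17, SE 0.22). Cacna1d, a calcium channel, was at 25.3, 31.4 and 24.8 CPM at Day 10 and 55.6, 61.6 and 59.7 CPM in Day 12 +Fgf (log2 change 1.12, SE 0.12, limma adjusted p = 7.87e-07). Of 47 cilium genes, 27 were higher and 3 lower, by small amounts (median 0.26), and 17 and 1 with RNA integrity as a covariate. The transport subunits Ift172, Ift122, Ift57 and Ift80 rose by 0.72, 0.60, 0.59 and 0.55, and Rfx4, a factor of ciliogenesis, fell to 5.77, 6.31 and 1.15 CPM from 14.2, 14.8 and 14.5 CPM (log2 change -1.93, SE 0.50, and -1.23 without Day 12 +Fgf replicate 3). Of 47 lysosome genes, 9 were higher and 15 lower, near the share of all tested genes (55.7% in either direction), and 10 and 6 with RNA integrity as a covariate. Ctsd, cathepsin D, rose from 517, 475 and 465 CPM at Day 10 to 970.0, 884 and 1230.4 CPM in Day 12 +Fgf (log2 change 1.07, SE 0.09, limma adjusted p = 8.7e-08). Ctsl fell from 454, 471 and 418 to 310.3, 292 and 332 CPM (log2 change -0.52, SE 0.10). Against Day 12 +Wnt, 2 lysosome genes were higher and 32 lower.

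Cytokine and interferon genes moved both ways. Of 26 cytokine and receptor genes, 9 were higher and 4 lower, near the share of all tested genes (55.7% in either direction). Ptgs2, the inducible cyclooxygenase, was at 0.409, 0.468 and 0.611 CPM at Day 10 and 11.9, 9.11 and 15.1 CPM in Day 12 +Fgf (log2 change 3.93, SE 0.22, limma adjusted p = 6.11e-10). Tnfrsf11b, the decoy receptor osteoprotegerin, rose from 0.477, 0.134 and 0.153 CPM at Day 10 to 6.27, 4.01 and 9.97 CPM in Day 12 +Fgf (log2 change 3.63, SE 0.31, limma adjusted p = 7.87e-08). Tnfrsf19, a receptor induced by Wnt signaling, fell from 128, 139 and 143 to 58.9, 60.7 and 26.8 CPM (log2 change -1.57, SE 0.51), a call lost without Day 12 +Fgf replicate 3 (log2 change -1.19). Of 19 interferon and antigen presentation genes, 7 were higher and 7 lower (6 and 4 without Day 10 replicate 3, 7 and 4 without Day 12 +Fgf replicate 2), with Ifit2 up by 1.15 and H2-K1 down by 0.74. Stat3 was at 46.3, 110.4 and 49.6 CPM at Day 10 and 35.7, 28.8 and 39.3 CPM in Day 12 +Fgf (log2 change -0.88, SE 0.22), where Day 10 replicate 2 was by far the highest (log2 change -0.48 without it). Of 12 crystallin and lens genes, 5 were higher and 2 lower, near the share of all tested genes (55.7% in either direction). Maf was at 32.8, 45.5 and 37.5 CPM at Day 10 and 89.3, 63.4 and 96.1 CPM in Day 12 +Fgf (log2 change 1.09, SE 0.13). Prox1 was at 5.45, 9.63 and 6.27 CPM at Day 10 and 13.5, 12.9 and 13.5 CPM in Day 12 +Fgf (log2 change 0.92, SE 0.19).

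Outside the lists, the largest increases in genes above 10 CPM included Trpc6, a cation channel gated by diacylglycerol, at 1.09, 0.669 and 1.15 CPM at Day 10 and 43.4, 34.7 and 54.05 CPM in Day 12 +Fgf (log2 change 5.13, SE 0.23, limma adjusted p = 9.24e-11), and Ano1, a calcium-gated chloride channel, at 0.273, 0.334 and 0.306 CPM at Day 10 and 15.97, 19.2 and 21.4 CPM in Day 12 +Fgf (log2 change 4.98, SE 0.20, limma adjusted p = 3.05e-11). Rhoj, a small GTPase of adhesion and migration, was at 3.202, 3.54 and 2.52 CPM at Day 10 and 44.4, 44.5 and 71.4 CPM in Day 12 +Fgf (log2 change 3.96, SE 0.19), Angpt2, an angiopoietin, at 0.954, 1.07 and 1.605 CPM at Day 10 and 28.8, 24.4 and 43.9 CPM in Day 12 +Fgf (log2 change 4.41, SE 0.25) and Csn3, a casein gene, at 6.81, 4.88 and 7.41 CPM at Day 10 and 87.8, 77.2 and 121 CPM in Day 12 +Fgf (log2 change 3.84, SE 0.24). Pmp22, a myelin and epithelial membrane protein, rose from 1.77, 2.01 and 2.14 CPM at Day 10 to 31.5, 23.2 and 48.5 CPM in Day 12 +Fgf (log2 change 3.87, SE 0.18). Megf10, an engulfment receptor, rose from 1.64, 1.74 and 1.68 to 24.5, 21.1 and 41.3 CPM (log2 change 3.82, SE 0.20). Among the largest decreases, Inmt, an N-methyltransferase, fell by 5.54 on the log2 scale, and Car3, a carbonic anhydrase, was at 33.3, 19.5 and 27.7 CPM at Day 10 and 1.65, 2.29 and 2.75 CPM in Day 12 +Fgf (log2 change -3.41, SE 0.23, limma adjusted p = 6.87e-09). Dact2, a Dishevelled-binding protein, was at 28.8, 25.3 and 25.6 CPM at Day 10 and 3.36, 3.12 and 2.49 CPM in Day 12 +Fgf (log2 change -3.04, SE 0.26), Fhod3, a formin that assembles actin, at 155, 118 and 149 CPM at Day 10 and 23.6, 25.8 and 16.04 CPM in Day 12 +Fgf (log2 change -2.69, SE 0.14, limma adjusted p = 3.83e-10) and Enpp2, which makes lysophosphatidic acid, at 58.5, 37.5 and 35.7 CPM at Day 10 and 4.82, 8.03 and 7.67 CPM in Day 12 +Fgf (log2 change -2.63, SE 0.30). Penk, the enkephalin precursor, fell from 23.8, 17.8 and 16.5 CPM at Day 10 to 2.54, 3.76 and 1.92 CPM in Day 12 +Fgf (log2 change -2.72, SE 0.19). Tfap2c fell from 30.9, 37.8 and 41.7 to 6.08, 10.9 and 1.98 CPM (log2 change -2.75, SE 0.41), with the Day 12 +Fgf libraries widely spread.

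A direct test of Day 12 +Fgf against Day 12 +Wnt asked where the tissues of the same day differed. It called 7131 genes (51.5%), 3642 higher and 3489 lower in Day 12 +Fgf, of which 852 (6.15%) and 904 (6.53%) differed by at least 2-fold. The tissues also differ in serum, so the agents cannot be told apart. By list, the members that were higher in Day 12 +Fgf far outnumbered the lower for immediate early genes (13 and 2), the serum and YAP genes (23 and 1), DNA replication (37 and 1) and ribosome biogenesis (30 and 3). The reverse held for pigment genes (0 and 16), Wnt ligands and regulators (6 and 23), channels (9 and 30), the respiratory chain (3 and 28) and pan-neuronal genes (4 and 28). For matrix genes the split was 19 higher and 7 lower for collagens and 20 higher and 5 lower for metalloproteinases and their inhibitors. Sterol genes (8 and 4 of 25), cilium genes (6 and 8 of 47) and hypoxia genes (4 and 4 of 22) were split on both sides.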

How the data were processed

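RNA-Seq libraries (TruSeq Stranded mRNA kit) of 3 biological replicates per group were used, assigned from the labels. The authors mapped reads to mm10 with TopHat2 2.0.8b, counted fragments on UCSC mm10 genes with Cuffdiff of Cufflinks 2.1.1 and normalized them with edgeR 3.2.4, per the labels and methods. Read filters and the normalization option are not given in the sources used here. The deposited values, which the study calls CPM, were treated as a normalized signal, since 100% of non-zero values were whole multiples (within 0.02) of what 1 read was worth, 0.0620 to 0.0764 CPM. All columns of values belonged to a sample. Of 23244 entries, 4604 were at 0 in all libraries, 406 shared a symbol with another entry and 186 named several genes.

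Groups were compared with limma 3.58.1 (R 4.3.3) on log2(value + 0.3), in 1 fit of 5 group means to 15 libraries with a trend, with two-sided tests and Benjamini-Hochberg adjustment over the 13845 tested genes (threshold 0.05). P-values measure the spread between replicates of 1 ES line. Alternatives covered the pseudocount, filter, scaling, RNA integrity, replicate block, samples, moderation, leaving out each replicate, and edgeR 4.0.16's quasi-likelihood test on recovered reads. The procedure was tested on simulated data. The comparison and the gene lists were chosen with earlier results of these data known, and the counts of list members are therefore descriptions. Replicate numbers did not pair the samples (correlations of same-numbered deviations -0.017, -0.0020 and -0.085).

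Genes were named by a rule. It took from each list up to 4 largest increases and 4 largest decreases past the threshold (at least 5 CPM in the higher group, no overlap, a symbol of 1 entry) and the highest member at Day 10, the 20 largest changes in each direction overall at 10 CPM or more, the optic progenitor markers and all Spry and Spred genes. Not all are reported here. Promoters came from RefSeq, gene positions and overlaps from the GENCODE annotation of GRCm38. The motifs and genes shown with them were chosen after the values were seen. Python 3.11.15, NumPy 2.4.6, pandas 2.3.3 and matplotlib 3.10.9 were used.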

Additional observations from a re-analysis of the deposited data

Results flagged for a closer look

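Of the genes that moved in opposite directions from Day 10 in Day 12 +Fgf and in Day 12 +Wnt, the 8 with the largest tested difference between the treatments are given here, as log2 differences of Day 12 +Fgf minus Day 12 +Wnt in limma. The difference was 7.41 for Anxa1, 7.35 for Csn3, 6.84 for Cyp26a1, 6.32 for Tagln, 6.14 for Grb10, 5.95 for Foxn4, 5.77 for Acta2 and 5.61 for Angpt2. All 8 were higher in Day 12 +Fgf and lower in Day 12 +Wnt than at Day 10.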

How the results depend on the processing

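With a filter of 10 CPM in 3 libraries, 756 genes (493 higher, 263 lower) changed by at least 2-fold in place of 1293, since fewer genes were tested. Leaving out 1 replicate gave 6791 to 7287 genes past the threshold, 1204 to 1411 of at least 2-fold and 6200 to 6684 against Day 12 +Wnt. RNA integrity as a covariate gave 5608 genes past the threshold, and edgeR on recovered reads gave 7764 (3654 higher, 4110 lower), 1527 and 7132. Of the alternatives run, the filter of 10 CPM was the only setting that moved 1 of these counts by over 1.5 times. With the replicate number as a block, 7688, 1300 and 7094 genes passed, but the numbers did not pair the samples. Of the 375 genes that met the naming rule, 34 lost their call with RNA integrity as a covariate, 17 without Day 12 +Fgf replicate 3, 1 in edgeR and 1 with the block. Cdk4 reversed after quantile normalization, to a log2 change of 0.0067 from -0.14. The cause was not tested for these genes. Rescaling moved the median change of all genes to -0.024 at most. Precision is limited by 3 replicates and, for genes near 0, by depth.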

Other observations

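A list of p53 targets was written after the decreases of Ccng1 and Cdkn1a had been seen, so its counts are a description. Of 24 tested genes, 17 were lower in Day 12 +Fgf than at Day 10 (8 of them at least 2-fold), 4 were higher and 3 did not pass, with a median log2 change of -0.66. Over all tested genes, 27.8% were lower and 3.63% lower by at least 2-fold, and the list holds Ccng1 and Cdkn1a. It does not hold Gadd45a, also counted as a p53 target, which rose by 1.402 on the log2 scale. Eda2r, a death receptor of the Tnf family, was at 93.1, 133 and 105 CPM at Day 10 and 26.3, 29.7 and 27.3 CPM in Day 12 +Fgf (log2 change -1.97, SE 0.12, limma adjusted p = 1.35e-09). Phlda3, Zmat3 and Aen fell by 1.49, 1.37 and 1.13 on the log2 scale, and the increases were Rrm2b (0.52), Btg2 (0.51), Sesn1 (0.43) and Pmaip1 (0.42). Trp53 itself fell by 0.41. In Day 12 +Wnt, Eda2r, Phlda3, Ccng1, Aen and Zmat3 were also lower than at Day 10 (log2 changes -1.53, -1.57, -1.24, -1.10 and -0.83). Rrm2b, Btg2 and Sesn1 were higher there too, and Pmaip1 was lower. Phlda3 and Aen did not pass between the Day 12 groups (limma adjusted p = 0.607 and 0.695), while Eda2r, Ccng1 and Zmat3 were lower in Day 12 +Fgf.

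Zscan4c and Zscan4f, which mark a rare and transient state of mouse ES cells, were seen with Gm8994 and Gm20767 among the largest decreases. Zscan4c fell from 9.47, 10.6 and 14.5 CPM at Day 10 to 0.317, 3.38 and 0 CPM in Day 12 +Fgf, so that replicate 2 of Day 12 +Fgf stood above the others. The Zscan4 genes are near-identical copies, and the division of reads between them is uncertain.

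Cell markers were also given by lists whose members were mostly at or near 0. Of the blood and macrophage markers, 2 were tested, and the sum of all 11 entries found was 2.73 to 3.81 CPM at Day 10 and 1.58 to 1.91 CPM in Day 12 +Fgf. The 9 endoderm markers (5 tested) summed to between 1.499 and 2.87 CPM and between 1.204 and 2.102 CPM. The 9 muscle markers (4 tested) summed to between 12.4 and 18.2 CPM and between 16.2 and 20.6 CPM. The 10 markers of surface ectoderm and lens (3 tested) summed to between 12.3 and 15.7 CPM and between 7.54 and 13.4 CPM. Lum, the gene of the connective tissue proteoglycan lumican, chosen after its values were seen, was at 8.303, 24.4 and 0.703 CPM in the Day 12 +Fgf libraries against 3.27, 1.54 and 2.45 CPM at Day 10, so that replicate 2 held the most of it.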
